A study of Oryctolagus cuniculus with 4 samples.

Results

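The splicing factor and hnRNP genes are the genes whose symbol in the deposited table begins with SRSF, SF3A, SF3B, HNRNP, SNRP, U2AF or PRPF, or with LSM or RBM and a digit. 60 of the 13913 genes in the table met this name rule, which used no measured value. They were 6 SR protein genes, 4 SF3B genes, 4 snRNP protein genes, 8 PRPF genes, 3 LSM genes, 9 hnRNP genes and 26 RBM genes. No U2AF or SF3A gene was among them, and the other 55 rabbit protein-coding symbols in RefSeq that meet the rule, such as SRSF1, HNRNPA1 and SF3B1, were not analysed here.

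The values came from single-cell RNA sequencing of wild-type female rabbits with hypertrophic scar (HS) on the ventral side of the ear. The scars had been raised by cutting out round pieces of skin together with the perichondrium. HS scars (2 libraries) had no treatment. Scars of the drug-loaded MNs group (2 libraries) received a patch of drug-loaded microneedles, whose tips stay in the skin and slowly give off 5-fluorouracil acetic acid from a peptide prodrug. It was put on weekly for 3 weeks, and tissue was taken 1 week after the last patch. Drug-free microneedles were not analysed here, so the patch and its drug cannot be told apart here. The study calls the 2 samples of a group biologically independent, and whether this means separate rabbits, each of which carried several scars, was not stated.

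Splicing removes introns from nuclear transcripts. The U1, U2, U4, U5 and U6 small nuclear ribonucleoproteins (snRNPs) assemble on each intron, with Sm or Lsm protein rings on their RNAs, with SF3B clamping the branch point and with PRPF8 at the catalytic centre. SR proteins bind exons and mostly favour their inclusion, while hnRNP proteins coat nascent RNA and often oppose it, and many RBM proteins tune single exons. Most of these genes are expressed in nearly every cell type, including the keratinocytes and fibroblasts of skin. Many of these genes limit their own level through unproductive splicing, which values per gene cannot show.

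The table gave 1 value per gene and library with a common total, and 1 unit below is 1 part in 1000000 of the library (relative expression). All 60 genes had a value above 0 in all 4 libraries. RBM20, a splicing factor of striated muscle, and RBM46, a germ cell RNA-binding protein, had a mean under 1 unit (0.111 to 0.622 units and 0.530 to 1.153 units over the libraries) and were not tested, which left 58. Sequencing depth was unknown, because the values carried no counts.

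Sums of several marker lists differed between the libraries. The 6 fibroblast markers in the table summed to 22414 and 21406 units in HS against 42840 and 45984 in drug-loaded MNs, with all 6 higher in the latter, though 0 of the 6 passed an adjusted p of 0.05. The 6 tested of 8 macrophage markers were also all higher, 0 of them past that threshold, with the 7 in the table summing to 77.7 and 95.3 units in HS against 194.1 and 195.0 in drug-loaded MNs. Mitochondrially encoded transcripts took 2.75% and 2.8% of the HS libraries and 4.37% and 4.58% of the drug-loaded MNs libraries, and 5 immediate early genes of the dissociation response summed to 20232 units in HS replicate 2 and to 12932 to 13713 units in the other 3 libraries. The keratinocyte markers KRT5, KRT14 and KRT10 were present in every library, and the sums of the basal list (5 of 6 genes) and the suprabasal list (4 of 6 genes) overlapped between groups. Sums of the cycling markers (6 of 8 genes) split by replicate number. They were 293 and 399 units in the replicate 1 libraries of HS and drug-loaded MNs and 163 and 174 in the replicate 2 libraries. All 6 cycling markers had a log2 fold change above 0 (median 0.59), with overlapping groups and 0 past an adjusted p of 0.05 in limma. Each value stands for all cells of a library together, so fewer cells of a type and less RNA per cell cannot be told apart, and the part of these shifts in the values below was not tested.

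The 60 genes together made up 0.63% and 0.625% of the HS libraries and 0.668% and 0.577% of the drug-loaded MNs libraries. The lowest and the highest share were thus both found in the drug-loaded MNs group, on either side of HS. By library the sums were 6304 and 6254.5 units in HS and 6677 and 5767 units in drug-loaded MNs.

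The 2 drug-loaded MNs libraries differed in 1 direction for most genes. Of the 58 tested genes, 46 were lower in drug-loaded MNs replicate 2 than in replicate 1, with a median difference of -0.24 on the log2 scale. Over all 9348 tested genes the same median was -0.11. Values were higher in drug-loaded MNs replicate 2 than in replicate 1 for 20.7% of the 58 genes and 35.7% of all tested genes. Drug-loaded MNs replicate 1 held the highest value for 30 of the 58 genes and drug-loaded MNs replicate 2 for 0 of them, against 40.1% and 16.9% of all tested genes. HS replicate 1 held the lowest value for 26 of the 58 (44.8%), close to its share among all tested genes (44.5%). The 2 HS libraries differed by a median of 0.28 (log2, without sign) over the 58 genes and the 2 drug-loaded MNs libraries by 0.24, against 0.33 and 0.23 over all tested genes. The closest pair of libraries for these genes crossed the groups: HS replicate 2 and drug-loaded MNs replicate 2 differed by a median of 0.15. The same pair was also the closest over all tested genes (0.225, against 0.233 for the 2 drug-loaded MNs libraries).

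**Figure D1:**
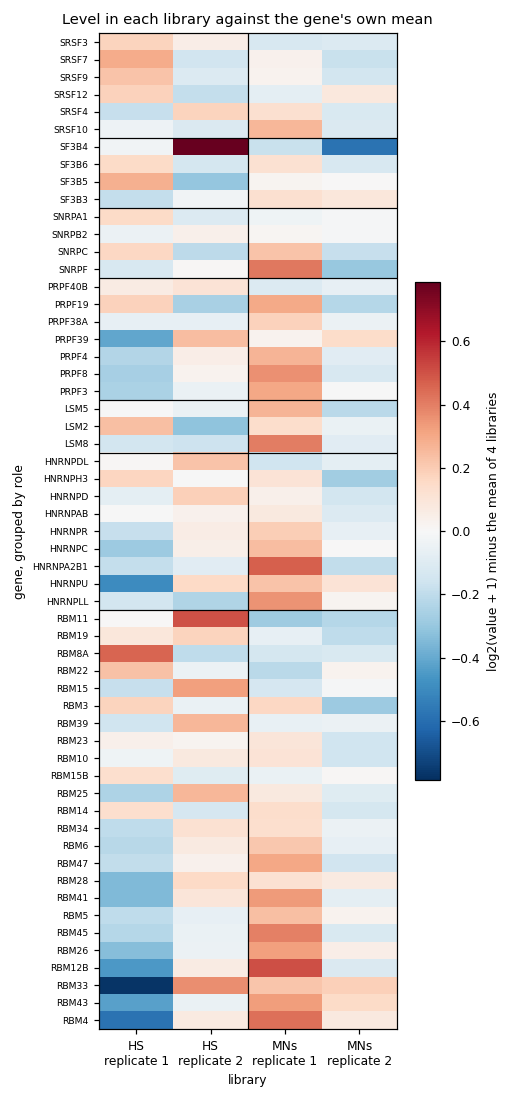
Level of 57 of the 58 tested genes in each library, as log2(value + 1) minus the mean of that gene over the 4 libraries. Rows are genes grouped by role and columns are libraries, red is above and blue below the gene's own mean. The column of drug-loaded MNs replicate 1 holds the highest value for 30 genes and that of drug-loaded MNs replicate 2 for 0.

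To examine whether drug-loaded MNs treatment changed these genes, log2(value + 1) was compared between the groups with limma, fitted over all 9348 tested genes. 0 of the 58 genes passed an adjusted p of 0.05, and the smallest adjusted p among them was 0.576 (SF3B4). The background was 4 of 9348 genes, or 0.0428%. At an unadjusted p under 0.05 in limma, 0 of the 58 were higher in drug-loaded MNs, where 7.26% of all tested genes were, and 1 was lower (SF3B4), where 1.39% of all tested genes were. Both libraries of a group lay on the same side of both others for 9 of the 58 with drug-loaded MNs higher (15.5%, against 26.6% of all tested genes) and for 6 with drug-loaded MNs lower (10.3%, against 11.2%). A smaller share of these genes than of all genes thus stood apart upwards, and about the same share downwards, with no test of either gap.

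The log2 fold changes (drug-loaded MNs minus HS) ran from -0.76 in SF3B4 to 0.51 in RBM4, with 34 of the 58 above 0 (58.6%, against 64.6% of all tested genes) and 24 below. Their median was 0.05, and the median over all tested genes was 0.12. Under median ratio scaling, which makes the typical gene level across libraries, both medians moved down together, to -0.09 and -0.011, and 22 of the 58 were then above 0. The interval of the difference shows how far these libraries bound a change. For 52 of the 58 genes the 95% limma interval lay inside -1 to 1. This was so for 89.7% of these genes and 60.4% of all tested genes. The range stands for a doubling or a halving of value + 1, so the value of a low gene can change by more. The 58 also stood at higher levels, with library medians of 5.65 to 6.03 (log2) against 4.36 to 4.67 over all tested genes. The fit lets the spread follow the level, and the part of level in these shares was not tested. The exceptions to the range of -1 to 1 were SF3B4, RBM4, RBM11, RBM12B, RBM33 and RBM43. A single library set the direction of the median log2 fold change of these genes, which was -0.048 without drug-loaded MNs replicate 1 (20 of 58 above 0) and 0.14 without drug-loaded MNs replicate 2 (43 of 59 above 0).

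**Figure D2:**
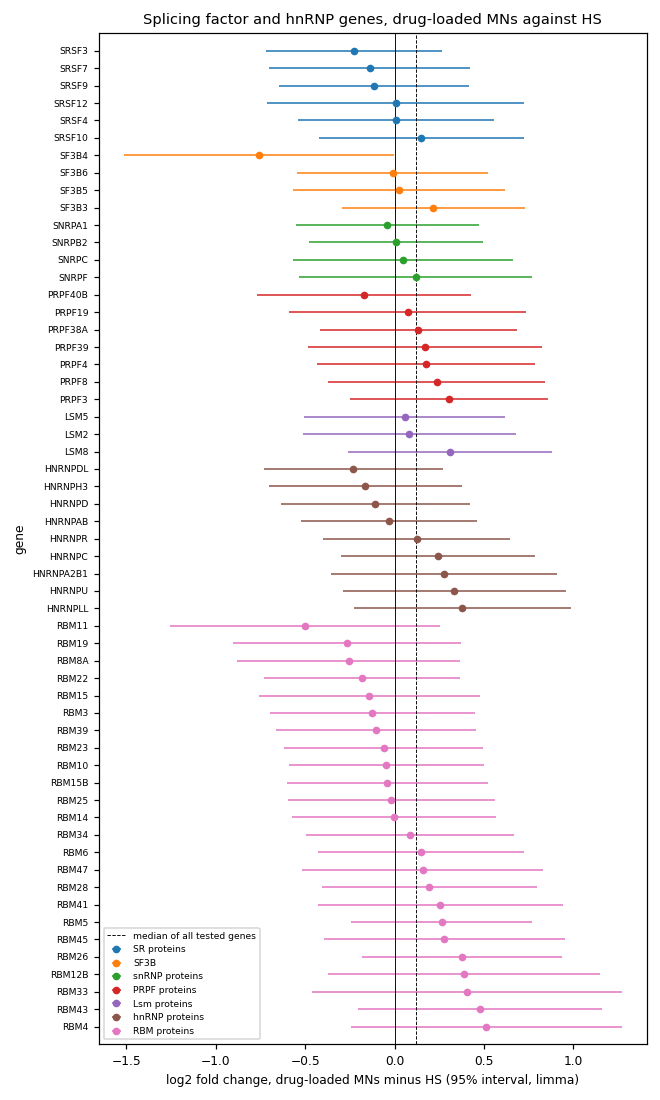
Log2 fold change of 57 of the 58 tested genes, drug-loaded MNs minus HS, with its 95% interval from limma, coloured by role group. The solid line marks 0 and the dashed line the median of all tested genes (0.12). The interval of SF3B4 (-1.51 to -0.001) leaves out 0 and those of the other genes plotted include it, before any adjustment for the number of genes. Under median ratio scaling 22 of the 58 tested genes would lie above 0.

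SR proteins carry RNA-binding domains and a tail rich in arginine and serine, which kinases of the CLK and SRPK families phosphorylate. 0 of the 6 SR protein genes passed the test. The 6 summed to 1359 and 1200.5 units in HS against 1196 and 1107 units in drug-loaded MNs, so the groups did not overlap, by a margin of a few units. Their median log2 fold change was -0.055 with 3 genes above 0 and 3 below, and it was -0.2 under median ratio scaling and 0.067 without HS replicate 1.

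SRSF3, the smallest SR protein, which also helps export mRNA, stood at 598 and 549 units in HS and at 486 and 492 in drug-loaded MNs. It was the single SR protein gene whose groups did not overlap. The means were 574 ± 34.6 and 489 ± 4.36 units (SD, n = 2 each), a difference of -0.23 in log2 (SE 0.21, adjusted p 0.840 by limma). SRSF7, a zinc knuckle SR protein that like SRSF3 takes part in mRNA export, stood at 253 and 185 units in HS and at 211 and 183 in drug-loaded MNs. Its high library was HS replicate 1, and the groups overlapped, with -0.14 as its log2 fold change (SE 0.24, adjusted p 0.918 by limma). SRSF9 was spread the same way, at 351 and 278 units in HS against 306 and 272 in drug-loaded MNs. SRSF4 (119 to 152 units), SRSF10 (34.1 to 44.5 units) and SRSF12 (1.63 to 2.39 units) each had overlapping groups.

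SF3B is the part of the U2 snRNP that holds the branch point adenosine. 4 of its genes were present, 0 passed, and their median log2 fold change was 0.007, with a change of sign under median ratio scaling (-0.14) and with a total without abundant genes (-0.001). SF3B4, an RNA-binding subunit that contacts the intron near the branch point, stood at 39.8 and 70.8 units in HS and at 35.8 and 26.9 in drug-loaded MNs. HS replicate 2 was far above the other 3 libraries, and the lower HS library was within 4 units of drug-loaded MNs replicate 1. HS replicate 2 also held the highest sums of dissociation response genes and of suprabasal keratinocyte markers. Drug-loaded MNs replicate 2 was the lowest for SF3B4 but for neither of these sums. The part of these sums in the SF3B4 values was not tested. The log2 fold change came to -0.76 (SE 0.32, adjusted p 0.576 by limma), and it was -0.35 without HS replicate 2 and -1.17 without HS replicate 1.

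The other 3 SF3B genes did not follow SF3B4. SF3B3, the large scaffold subunit, was at 50.9 and 56.8 units in HS and at 63.5 and 61.8 in drug-loaded MNs, with no overlap and a difference of 0.22 in log2 (SE 0.22, adjusted p 0.860 by limma). SF3B5, a small subunit, was at 232 and 155 units in HS and at 194 and 191 in drug-loaded MNs, so both treated libraries lay between the HS libraries (log2 fold change 0.025). SF3B6, which sits beside the branch point, was at 139 and 114 units in HS and at 136 and 115 in drug-loaded MNs, and its values went with the replicate number (log2 fold change -0.011).

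Of the proteins carried by the U1 and U2 snRNPs and of the Sm ring, 4 genes were present and 0 passed. The groups overlapped in all 4, and their median log2 fold change was 0.026, or -0.12 with all 4 below 0 under median ratio scaling. SNRPB2, a U2 protein, had the narrowest range of the 4, at 105 and 111 units in HS against 109 and 107 in drug-loaded MNs, its log2 fold change being 0.0062 with a 95% interval of -0.48 to 0.49. Its U2 partner SNRPA1 was at 111 and 92.1 units in HS against 97.0 and 99.0 in drug-loaded MNs (log2 fold change -0.042). Both U2 proteins thus stayed within 92 to 111 units in all 4 libraries. SNRPC, a U1 protein that helps U1 grip the 5′ splice site, was at 47.5 and 36.5 units in HS against 49.7 and 37.2 in drug-loaded MNs (log2 fold change 0.045). SNRPF, a member of the Sm ring, was at 97.1 and 106 units in HS and at 141 and 86.0 in drug-loaded MNs, the widest gap between the treated libraries among the 58 genes (0.71 on the log2 scale). Its log2 fold change came to 0.12 (SE 0.28, adjusted p 0.944 by limma).

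The PRPF genes take part at several steps, from U1-associated factors to the U4/U6.U5 tri-snRNP and the Prp19 complex. 0 of the 8 passed, and their median log2 fold change was 0.15, or 0.011 under median ratio scaling and -0.005 without drug-loaded MNs replicate 1. PRPF3, a U4/U6 protein, was at 44.0 and 50.4 units in HS and at 65.0 and 52.3 in drug-loaded MNs, with no overlap and a difference of 0.3 in log2 (SE 0.24, adjusted p 0.812 by limma). PRPF8, the scaffold of the active site, was at 50.9 and 62.4 units in HS and at 78.8 and 56.0 in drug-loaded MNs, where the higher value came from replicate 1 alone (log2 fold change 0.23, SE 0.26, adjusted p 0.872 by limma). PRPF19, a ubiquitin ligase, was at 47.4 and 34.7 units in HS and at 51.5 and 35.5 in drug-loaded MNs, again by replicate number (log2 fold change 0.073). Among the rest, PRPF38A (29.7 units in both HS libraries, then 35.4 and 30.1) had groups that did not overlap upwards, and PRPF40B (12.4 and 12.8 units, then 10.9 and 11.3), a relative of a U1-associated yeast protein, downwards. PRPF4 (23.1 to 33.2 units) and PRPF39 (33.8 to 53.7 units) had overlapping groups.

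LSM2, LSM5 and LSM8 belong to the ring that binds the end of U6 RNA. LSM8 marks the nuclear ring, while LSM2 and LSM5 are shared with the cytoplasmic ring of mRNA decay. LSM8 was at 87.3 and 86.3 units in HS and at 128 and 90.7 in drug-loaded MNs, with no overlap and a difference of 0.31 in log2 (SE 0.24, adjusted p 0.813 by limma), most of it from drug-loaded MNs replicate 1. LSM2 was at 329 and 225 units in HS against 308 and 269 in drug-loaded MNs (log2 fold change 0.082), and LSM5 at 129 and 125 units in HS against 156 and 112 in drug-loaded MNs (log2 fold change 0.056). 0 of the 3 passed, and their median log2 fold change of 0.082 turned to -0.062 under median ratio scaling, where LSM2 and LSM5 were below 0.

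**Figure D3:**
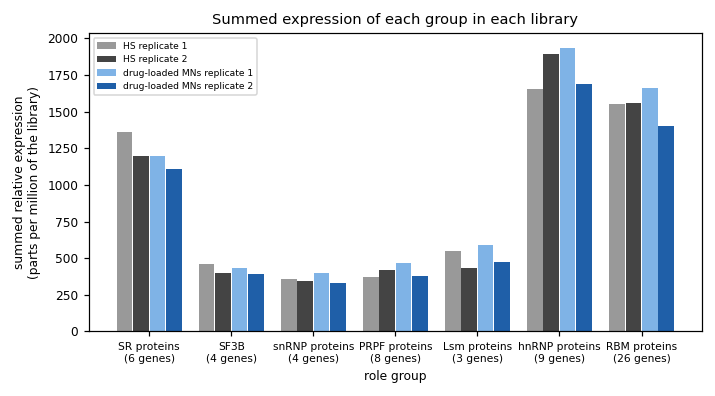
Summed relative expression of each role group in each library, in units (parts per 1000000 of the library), with HS libraries in grey and black and drug-loaded MNs libraries in light and dark blue and the number of genes under each group. Bars start at 0. The SR protein sums are 1359 and 1200.5 in HS against 1196 and 1107 in drug-loaded MNs, and the sums of the other 6 groups overlap between HS and drug-loaded MNs.

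hnRNP proteins are abundant nuclear RNA-binding proteins. The 9 genes summed to 1651 and 1896 units in HS against 1937 and 1687 in drug-loaded MNs, 0 passed, and their median log2 fold change was 0.12, or -0.02 under median ratio scaling. HNRNPU, a scaffold protein of the nucleus, was at 214 and 337 units in HS and at 353 and 325 in drug-loaded MNs. HS replicate 1 stood apart and the other 3 libraries lay together: the log2 fold change came to 0.33 (SE 0.27, adjusted p 0.814 by limma) and 0.009 without that library.

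HNRNPA2B1, a regulator of splicing and RNA transport, was at 103 and 110 units in HS and at 163 and 102 in drug-loaded MNs, so 1 treated library was high and the other the lowest of all 4. Its log2 fold change came to 0.27 (SE 0.27, adjusted p 0.854 by limma). HNRNPC, which binds uridine tracts of introns, was at 111 and 140 units in HS and at 161 and 136 in drug-loaded MNs, with overlap and a difference of 0.24 in log2 (SE 0.23, adjusted p 0.851 by limma). HNRNPLL, known for its role in CD45 splicing in lymphocytes, was at 15.8 and 14.8 units in HS and at 22.8 and 17.9 in drug-loaded MNs. Its groups did not overlap, and the log2 fold change came to 0.38 (SE 0.26, adjusted p 0.772 by limma). The T cell list could be read from CD2 alone, at 0.559 and 1.24 units in HS against 3.73 and 2.31 in drug-loaded MNs, and its part in the HNRNPLL values was not tested.

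HNRNPDL, a relative of the AU-rich element binding protein HNRNPD, was lower in both treated libraries than in both HS libraries. It was at 354 and 412 units in HS and at 316 and 334 in drug-loaded MNs, without overlap, with -0.23 as its log2 fold change (SE 0.21, adjusted p 0.840 by limma). HNRNPD itself overlapped, at 81.5 and 98.3 units in HS against 88.6 and 77.8 in drug-loaded MNs. HNRNPAB (312 to 356 units), HNRNPR (175 to 227 units) and HNRNPH3 (192 to 261 units) also overlapped.

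The 26 RBM genes are tied by a name and an RNA-binding domain more than by a function. Of the 24 tested, 12 were above 0 and 12 below, 0 passed, and the median was 0.041, or -0.099 under median ratio scaling. RBM3, a cold-inducible RNA-binding protein, was at 611 and 521 units in HS and at 603 and 443 in drug-loaded MNs (log2 fold change -0.13, SE 0.25, adjusted p 0.930 by limma). RBM39, a partner of the 3′ splice site factor U2AF, was at 61.4 and 82.4 units in HS and at 65.8 and 66.5 in drug-loaded MNs (log2 fold change -0.1). RBM25, a regulator of alternative exons, was at 141 and 200 units in HS and at 176 and 156 in drug-loaded MNs (log2 fold change -0.018), so in each of these 3 genes the groups overlapped.

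RBM5, RBM6 and RBM10 are related regulators of alternative exons. RBM10 was at 41.1 and 44.4 units in HS and at 45.4 and 37.6 in drug-loaded MNs (log2 fold change -0.046), and RBM6 ranged from 33.2 to 45.0 units, both with overlap. RBM5 was at 97.1 and 107 units in HS and at 132 and 114 in drug-loaded MNs, without overlap.

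Of the RBM genes with the smallest p among those without overlap, RBM26, RBM43 and RBM4 were higher in drug-loaded MNs. RBM26 was at 41.8 and 51.2 units in HS and at 66.4 and 54.9 in drug-loaded MNs (log2 fold change 0.38, SE 0.24, adjusted p 0.750 by limma). RBM43 was at 4.29 and 5.84 units and then 7.93 and 6.86, a difference of 0.48 in log2 (SE 0.29, adjusted p 0.743 by limma). RBM4, a regulator of alternative exons, was at 6.10 and 10.2 units in HS and at 13.4 and 10.2 in drug-loaded MNs, where HS replicate 2 and drug-loaded MNs replicate 2 differed by less than 0.1 unit. Its log2 fold change of 0.51 (SE 0.32, adjusted p 0.750 by limma) was 0.19 without HS replicate 1 and drew on a low value in that library. In the other direction, RBM11 was at 1.11 and 1.98 units in HS and at 0.739 and 0.805 in drug-loaded MNs (log2 fold change -0.5, SE 0.32, adjusted p 0.752 by limma), close to the filter of 1 unit. RBM19, a nucleolar protein of ribosome assembly and not a splicing factor, was at 7.44 and 7.96 units in HS and at 6.58 and 5.89 in drug-loaded MNs (log2 fold change -0.27, SE 0.27, adjusted p 0.861 by limma).

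The widest gap between the 2 HS libraries was in RBM33, picked after its values were seen, at 21.2 units in HS replicate 1 and 47.8 in HS replicate 2, with 42.9 and 42.1 units in drug-loaded MNs. RBM8A (Y14), a core protein of the exon junction complex, was split the opposite way, at 179 and 113 units in HS against 118 and 120 in drug-loaded MNs. In both genes the treated libraries stood within 2 units of each other. The remaining RBM genes, namely RBM12B, RBM14, RBM15, RBM15B, RBM22, RBM23, RBM28, RBM34, RBM41, RBM45 and RBM47, all had overlapping groups and lay between 10.2 and 72.0 units. RBM22, a protein of the active spliceosome that touches U6 RNA, was the highest of them, at 72.0 and 59.4 units in HS and at 52.8 and 62.6 in drug-loaded MNs. Over the 58 genes, the HS libraries differed by more than the group means did in 40, the drug-loaded MNs libraries did in 36, and the group means differed by more than both within-group gaps in 10. These were 69.0%, 62.1% and 17.2% of the 58, and the shares over all tested genes were 61.9%, 50.6% and 24.5%, with no test of the gaps.

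**Figure D4:**
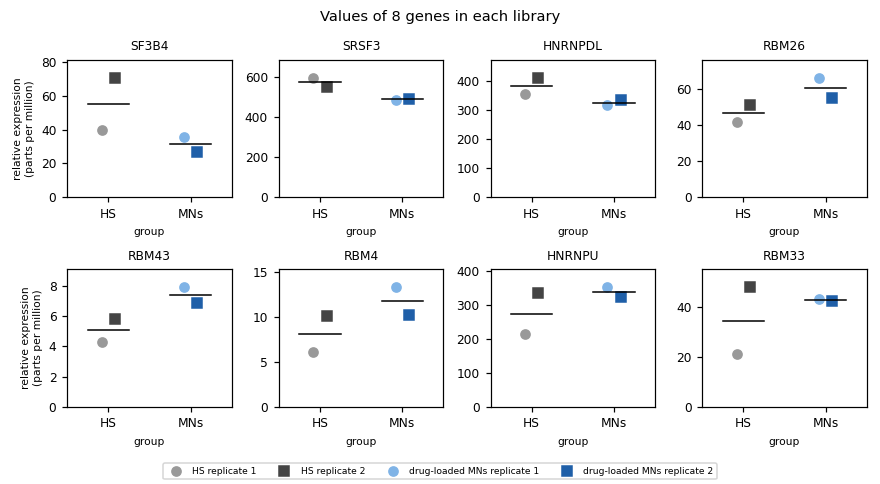
Relative expression of 8 genes in each library, in units (parts per 1000000 of the library), on axes that start at 0. Grey and black points are HS and blue points drug-loaded MNs, circles are replicate 1 and squares replicate 2, and the bars are group means of 2 libraries. In SF3B4 a single HS library (70.8) stands above the rest, in HNRNPU (214) and RBM33 (21.2) HS replicate 1 stands below the rest, and in SRSF3 and HNRNPDL both treated libraries lie below both HS libraries.

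A list of 122 other splicing genes, among them further spliceosome proteins, SR protein kinases, helicases and tissue-restricted regulators, gave the pathway around these genes. 76 of them were found in the table by symbol, and all 76 were tested. Genes of the table without a symbol could not be matched to the list. 0 passed an adjusted p of 0.05 in limma, with 47 above 0 and 29 below and a median log2 fold change of 0.072. At an unadjusted p under 0.05, 1 of the 76 was higher and 2 were lower, beside 7.26% and 1.39% of all tested genes. These were CELF2, CLK1 and GEMIN4, named after their values were seen.

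GEMIN4, a part of the SMN complex that loads Sm rings onto snRNAs, was at 30.7 and 26.5 units in HS and at 17.4 and 12.05 in drug-loaded MNs (log2 fold change -0.93, SE 0.28, adjusted p 0.400 by limma). CLK1, a kinase of SR proteins, was at 166 and 193 units in HS and at 128 and 123 in drug-loaded MNs (log2 fold change -0.5, SE 0.21, adjusted p 0.572 by limma). CELF2, a regulator of alternative exons, was at 18.0 and 18.0 units in HS and at 33.2 and 26.2 in drug-loaded MNs (log2 fold change 0.68, SE 0.25, adjusted p 0.485 by limma). In all 3 the groups did not overlap. GEMIN2, GEMIN5 and GEMIN6 had log2 fold changes of -0.12, 0.082 and 0.24, each with overlapping groups. CLK2 had 0.17 with overlap, and CLK4 had -0.12 without overlap. SRPK1, the other kind of SR protein kinase, was at 80.0 and 81.7 units in HS and at 85.9 and 84.8 in drug-loaded MNs (log2 fold change 0.078). The log2 fold change of SRPK2 was -0.15, with overlap. The HS libraries held 114 and 230 units of ESRP1, an epithelial splicing regulator, and the drug-loaded MNs libraries 109 and 161. This order over the libraries was shared by the suprabasal keratinocyte sums and by the dissociation response sums, but not by the basal keratinocyte sums. Within the suprabasal list KRT10 had this order, and the other genes in the table did not. The log2 fold change of ESRP1 was -0.29 (adjusted p 0.889 by limma). Its relative ESRP2 was at 40.9 and 56.1 units in HS and at 37.8 and 37.8 in drug-loaded MNs, without overlap (log2 fold change -0.33, adjusted p 0.796 by limma). Whether cell makeup or the dissociation response had a part in these values was not tested.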

How the data were processed

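Libraries were made with the 10x Genomics 3′ v2 method. The submitters' processing notes name Cell Ranger 2.1.1 and the mouse build mm10, although the gene identifiers are those of rabbit, so no coordinates are given. How cells were combined, how reads matching several genes were treated and whether a correction between samples had touched the values, and how doublets (2 cells under 1 barcode) were treated, is not given in the sources used here. The deposited values are relative expression: the table is named for FPKM, but each of the 4 columns summed to 10000 over 13913 genes, so a correction for gene length is not assumed.

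Values were rescaled to 1000000 per library, and genes were tested where the mean over the 4 libraries reached 1 unit. The planned test for FPKM values was used: log2(value + 1), lmFit and eBayes with trend in limma 3.58.1 (R 4.3.3), two-sided, Benjamini-Hochberg over all 9348 genes, threshold 0.05. Fold changes on this scale understate those of low genes. Exact permutation of 2 against 2 samples cannot go below 0.333 and was not used. The fit was tested on simulated data. The study calls the 2 samples of each group biologically independent but does not name the animals. P-values and intervals rest on the spread between these samples, which eBayes with trend draws toward that of other genes at a similar level. Members and lists were chosen with earlier results of these data known. Genes were named by a rule: core members fixed by role, up to 5 per direction with the smallest p among those without overlap, and every gene of role groups of 5 or fewer. Others are named with values for their role. RefSeq symbols (mOryCun1.1) matched 59 of the 60 genes. The values of 1 tested gene are not reported here singly, though counts, sums and medians include it.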

Additional observations from a re-analysis of the deposited data

How the results depend on the processing

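In all 12 alternatives 0 of these genes passed the threshold. The number of all genes that passed (4) was 0 under median ratio scaling, a total without abundant genes, a pseudocount of 5 and no filter on low values, 1 with eBayes without trend, and 0 to 75 with 1 library left out (0 without HS replicate 1, 3 without HS replicate 2, while leaving out drug-loaded MNs replicate 1 gave 48 and replicate 2 gave 75). With the replicate number as a block it was 241, and 0 of these genes were among them. Whether same-numbered libraries share more than a number is not stated. The correlation of their deviations, taken from each group mean, was 0.22 across genes, which cannot settle this. With the block, 1 residual degree of freedom was left. The count at an unadjusted p under 0.05 (1) was 0 with a pseudocount of 5, no filter and eBayes without trend, and 0 (without drug-loaded MNs replicate 2) to 4 (without HS replicate 2) with 1 library left out. The median of these genes minus that of all genes was -0.071, between -0.11 and 0.005 over the alternatives. 21 of the 58 kept their sign in every alternative that gave a value, 14 above 0 and 7 below. The like share of all tested genes is not given here, so this count is not read as a trait of these genes. Under median ratio scaling LSM2 was -0.062, LSM5 -0.088, PRPF19 -0.069, SF3B5 -0.12, SNRPB2 -0.14, SNRPC -0.096 and SNRPF -0.026, and SNRPB2 was -0.003 with a total without abundant genes. With 1 library left out, 36 of the 58 changed sign at least once, again with no share over all tested genes given. Among those the naming rule covers, log2 fold changes ranged from -0.059 to 0.61 (HNRNPA2B1), -0.19 to 0.36 (LSM2), -0.18 to 0.29 (LSM5), -0.19 to 0.34 (PRPF19), -0.008 to 0.48 (PRPF8), -0.18 to 0.087 (RBM10), -0.27 to 0.23 (RBM25), -0.35 to 0.098 (RBM3), -0.31 to 0.11 (RBM39), -0.26 to 0.32 (SF3B5), -0.16 to 0.13 (SF3B6), -0.17 to 0.088 (SNRPA1), -0.034 to 0.047 (SNRPB2), -0.16 to 0.25 (SNRPC), -0.24 to 0.47 (SNRPF) and -0.36 to 0.082 (SRSF7). The cause was not tested. With a library left out, its group keeps 1 sample, so the spread comes from the other group alone. Count tests were not run, because the values are no counts. RBM11 fell under a minimum mean of 5, and under that of 1 without HS replicate 2, and had no value there.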

Other observations

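Some of these genes lie side by side in the RefSeq gene order of the rabbit assembly mOryCun1.1. HNRNPDL and HNRNPD are neighbours with no protein-coding gene between them, and so are RBM5 and RBM6, while SRSF7 and HNRNPLL have 1 gene between them. In both HNRNPDL and HNRNPD the highest value was in HS replicate 2 (412 and 98.3 units), and in both RBM5 and RBM6 it was in drug-loaded MNs replicate 1 (132 and 45.0 units). SRSF7 was highest in HS replicate 1 (253 units) and HNRNPLL in drug-loaded MNs replicate 1 (22.8 units). Among the 58 tested genes, drug-loaded MNs replicate 1 was highest in 51.7% and HS replicate 2 in 25.9%. A shared highest library is thus not unusual. The table gives 1 value per gene, so reads shared between neighbouring genes could not be looked for.

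RBM28, which like RBM19 is a nucleolar protein of ribosome assembly, was at 32.2 and 46.0 units in HS and at 44.9 and 43.4 in drug-loaded MNs. RBM15 and RBM15B, partners of the enzyme that writes N6-methyladenosine, were split in opposite ways between the HS libraries, at 28.1 and 40.2 units and at 28.8 and 24.5 units. Their drug-loaded MNs libraries stood at 29.1 and 31.8 units for RBM15 and at 25.3 and 26.4 units for RBM15B.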
